A study of Mus musculus with 7 samples.

Results

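Creatine kinases, the enzymes that make and import creatine, the cytosolic adenylate kinase and the AMP deaminases buffer the ATP supply of muscle cells, and the mRNA levels of 10 such genes were followed in differentiating C2C12 cells depleted of the long non-coding RNA lnc-SMaRT. The members were the rows of the deposited table named Ckm, Ckb, Ckmt1, Ckmt2, Gatm, Gamt, Slc6a8, Ak1, Ampd1 or Ampd3. Of the 10 genes, 8 had a row among the 11642 rows, and all 8 passed the minimum mean of 0.5 RPKM (reads scaled by exon length and library size). No row was found for Ckmt1 and Ckmt2, the mitochondrial creatine kinases, which were not analysed here.

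C2C12 is a mouse myoblast line that leaves the cell cycle and fuses into myotubes in low serum. All samples were taken on day 2 of differentiation. Total RNA was sequenced from 2 samples that had received 30 nM of a scramble siRNA (si-SCR). It was also sequenced from 2 that had received 30 nM of siRNA #1 against lnc-SMaRT (si-SMaRT). In these libraries, 1 siRNA sequence thus stands for the depletion. By qPCR on the same day, the study reports lower mRNA of Mck (here Ckm) with this siRNA and with a further siRNA. Those qPCR values were not used here. The study calls the 2 samples of a group separate populations of cells, and p-values measure the spread between these populations of the same line. The series holds 3 more libraries, from a pull-down with probes against lnc-SMaRT, a LacZ probe pull-down and their input.

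In muscle, creatine kinase moves a phosphate between ATP and creatine, so that phosphocreatine refills ATP when contraction uses it up. Adenylate kinase turns a pair of ADP molecules into ATP and AMP, and AMP deaminase removes AMP as IMP, which the purine nucleotide cycle returns to AMP. Myoblasts carry the brain type of cytosolic creatine kinase, Ckb, and switch on the muscle type, Ckm, as they differentiate.

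Ckm, Ckb and Ak1 were lower in both si-SMaRT samples than in both si-SCR samples, with mean RPKM values 2.27, 1.80 and 1.63 times lower. Ampd3 was higher in both si-SMaRT samples. The genes for creatine synthesis and import, Gatm, Gamt and Slc6a8, and the muscle AMP deaminase Ampd1 overlapped between the groups. By limma with Benjamini-Hochberg adjustment over 11086 rows, 0 of the 8 members passed an adjusted p of 0.05, where 0.505% of all rows passed. At an unadjusted p under 0.05 there were 3 members, Ckm, Ckb and Ak1, against 9.09% of all rows. When its dependence on GC content was taken out of each sample, Ckm and Ckb fell past the threshold, where 2.95% of the rows were called lower. Both calls were lost when either si-SCR sample was left out, but almost no row at all was called in those fits. The log2 fold changes without si-SCR 1 and without si-SCR 2 were -1.05 and -1.21 for Ckm and -0.70 in both for Ckb.

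Depletion was checked first. The si-SCR samples had 19.1 and 15.9 RPKM of lnc-SMaRT and the si-SMaRT samples 2.88 and 3.65, and its log2 fold change was -2.39 (limma, Benjamini-Hochberg adjusted p = 0.000882). The effective library sizes lay between 11291255 and 14312935 reads. Of 13 markers of differentiating muscle cells, all had a row and 11 were lower on average in si-SMaRT, where 5291 of all 11086 rows were. Of the 13, 0 passed the threshold by limma and the median log2 fold change was -0.57. At an unadjusted p under 0.05 there were 6, against 9.09% of all rows, 5 of them lower and Myh8 higher. With the GC trend removed, Mef2c and Tnni1 were lower past the threshold, where 2.95% of rows were. The summed RPKM of the 13 was 10854 and 11519 in si-SCR and 8109 and 5663 in si-SMaRT. Of 6 markers of proliferating myoblasts, 5 had a row, Pax7 had none, and their sum was 72.2 and 64.0 RPKM in si-SCR against 68.0 and 81.6 in si-SMaRT. Among these 5, Ccnd1 and Id3 rose, with log2 fold changes of 1.36 and 1.60 (adjusted p of 0.036 and 0.023, limma with Benjamini-Hochberg adjustment). In that fit 0.505% of all rows passed. Id2, Id1 and Myf5 stood at -0.58, -0.011 and -0.0040. Of 10 markers of neurons, leukocytes, endothelium and adipocytes, only Tubb3 (13.6 to 24.1 RPKM) and Cd68 (0.788 to 1.13 RPKM) had a row, with log2 fold changes of -0.12 and 0.08. In these bulk samples, fewer cells that express a gene and less RNA of it per cell cannot be told apart, and the part of differentiation as such in the values below was not tested.

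The bases upstream of the start sites of Ckm, Ckb and Ak1, the 3 members that were lower in both si-SMaRT samples, are shown because these genes were lower together. They were read from the RefSeq promoter table of GRCm38.p6, which gave 14 start sites for 8 of the 10 genes and none for Slc6a8 and Ampd1. Each stretch runs 5′ to 3′ on the strand of the gene and stops before any annotated exon of the gene. Positions count back from -1, the base before the start site, and each stretch shown begins at -250. Those of Ckb and Ak1 end at -1, and that of Ckm ends at -70, before an annotated exon. The Ckm stretch lies within the span of the gene given below. Capitals mark matches, on either strand, to the E-box CANNTG, to TATAAA and to the MEF2 motif. The stretch of Ckm is chr7:19410844-19411024 on the plus strand, that of Ckb chr12:111672339-111672588 on the minus strand, and that of Ak1, at the first of its 4 start sites, chr2:32621508-32621757 on the plus strand.
Ckm: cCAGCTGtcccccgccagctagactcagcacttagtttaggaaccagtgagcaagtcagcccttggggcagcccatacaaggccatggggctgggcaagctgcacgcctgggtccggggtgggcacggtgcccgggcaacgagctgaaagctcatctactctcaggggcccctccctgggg
Ckb: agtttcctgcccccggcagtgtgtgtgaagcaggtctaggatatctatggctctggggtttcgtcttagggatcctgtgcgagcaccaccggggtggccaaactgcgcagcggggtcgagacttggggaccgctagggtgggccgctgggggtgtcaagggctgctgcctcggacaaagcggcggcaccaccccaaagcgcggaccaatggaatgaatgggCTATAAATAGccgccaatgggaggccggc
Ak1: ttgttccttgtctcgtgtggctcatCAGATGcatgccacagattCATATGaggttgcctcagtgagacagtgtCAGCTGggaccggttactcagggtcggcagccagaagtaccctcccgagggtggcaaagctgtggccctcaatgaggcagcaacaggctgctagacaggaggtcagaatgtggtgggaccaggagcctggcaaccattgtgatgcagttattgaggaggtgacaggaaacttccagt
In the Ckm stretch the single E-box, at position -249, was CAGCTG. The Ckb stretch had no E-box and a TATAAA at -28 inside a MEF2 motif that began at -29, so these matches overlap. The Ak1 stretch held 3 E-boxes, and the one nearest to the start site was CAGCTG. Upstream of Ak1 start site 2 there was 1 E-box, a CAGCTG, while start sites 3 and 4 had 2 and 1 E-boxes and no CAGCTG. Which start site these cells use was not tested. Upstream of members that were not lower in both si-SMaRT samples, Gatm had 1 E-box and Gamt had none. Ampd3 had 1, 3 and 0 E-boxes at its start sites 1, 2 and 3. Among 32851 promoters, 66.2% had a CANNTG in the 250 upstream bases, 13.0% a CAGCTG, 12.4% a TATAAA on either strand and 2.92% a MEF2 motif. These matches describe letters in the sequence and were not tested for binding.

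Ckm encodes the muscle creatine kinase and lies on chromosome 7 of GRCm38 from 19404776 to 19422841, on the plus strand. It was the most abundant member, and 99.3% of all rows had a lower mean in si-SCR. The si-SCR samples had 676 and 641 RPKM of Ckm, si-SMaRT 1 had 380.5 and si-SMaRT 2 had 201. Neither depleted sample reached the control level, and si-SMaRT 2 lay far below si-SMaRT 1. The means were 658 ± 24.5 (SD, n = 2) and 291 ± 127 (SD, n = 2) RPKM. Its log2 fold change was -1.25 (SE 0.32, limma, Benjamini-Hochberg adjusted p = 0.106), with a 95% interval of -1.92 to -0.58. With voom on the recovered reads, an alternative within limma, Ckm passed at an adjusted p of 0.032, where 0.929% of rows passed. The value rested on the si-SMaRT samples unequally, with -1.71 without si-SMaRT 1, where Ckm was called along with 26.2% of all rows, and -0.79 without si-SMaRT 2, where it was not and 8.49% of rows were (adjusted p of 1.43e-08 and 0.051, limma). At least 12100, 12821, 6079 and 4065 reads stood behind the 4 values, so counting error was small beside the spread between samples. Of the stretches of 50 bases in the longest Ckm transcript, 11.7% also occur in A930016O22Rik, a gene on the opposite strand. The study prepared stranded libraries and mapped them as such, but no source used here states whether reads were counted by strand. A share of the reads from such stretches therefore cannot be told apart.

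Ckb encodes the brain creatine kinase and lies on chromosome 12 from 111669361 to 111672338, on the minus strand. The si-SCR samples had 209.8 and 237 RPKM of Ckb, si-SMaRT 1 had 163 and si-SMaRT 2 had 84.9. The order of the 4 samples left no overlap between the groups, and si-SMaRT 2 was again the lowest. The means were 224 ± 19.5 (SD, n = 2) and 124 ± 55.2 (SD, n = 2) RPKM. The log2 fold change was -0.92 (SE 0.31, limma, Benjamini-Hochberg adjusted p = 0.281). It was -1.39 without si-SMaRT 1 (adjusted p of 5.18e-08, where 26.2% of all rows were called) and -0.45 without si-SMaRT 2 (adjusted p of 0.232), by limma. The pseudogenes Ckb-ps1 and Ckb-ps2 and the gene model Gm12892 share 7.96% of its 50-base stretches. How reads from such stretches were assigned was not determined.

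The balance of the cytosolic creatine kinases moved less than their sum. The summed RPKM of Ckm and Ckb was 886 and 878 in si-SCR and 544 and 286 in si-SMaRT. Ckm made up 76.3% and 73.0% of that sum in si-SCR and 70.0% and 70.3% in si-SMaRT. The muscle type was thus the major form in all 4 samples, with a slightly smaller share in both si-SMaRT samples. As a ratio, Ckm to Ckb was 3.22 and 2.70 in si-SCR and 2.33 and 2.36 in si-SMaRT (two-sided exact permutation p = 0.333, the smallest that 2 against 2 samples allow). In the deposited values the si-SMaRT samples were close to each other in this ratio. With the GC trend removed they were not, since si-SMaRT 2 minus si-SMaRT 1 was then -0.48 for Ckm and 0.05 for Ckb on the log2 scale.

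Ak1 encodes the cytosolic adenylate kinase of muscle and lies on chromosome 2 from 32621758 to 32635058, on the plus strand. The si-SCR samples had 130.2 and 122 RPKM of Ak1, si-SMaRT 1 had 100.01 and si-SMaRT 2 had 54.8. The groups did not overlap, and si-SMaRT 1 was nearer to the si-SCR samples than to si-SMaRT 2. The log2 fold change was -0.76 (SE 0.30, limma, Benjamini-Hochberg adjusted p = 0.395). It was -1.20 without si-SMaRT 1, where Ak1 was called along with 26.2% of all rows (adjusted p of 8.69e-07), and -0.33 without si-SMaRT 2 (adjusted p of 0.372), by limma. Ckm to Ak1 was 5.19 and 5.27 in si-SCR and 3.80 and 3.66 in si-SMaRT, while Ckb to Ak1 overlapped, with 1.61 and 1.95 against 1.63 and 1.55 (two-sided exact permutation p = 0.333 and 0.667). Thus 3 of the 8 members were lower without overlap, where 20.4% of all rows were. None of the 50-base stretches of Ak1 occurred in another gene.

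**Figure D1:**
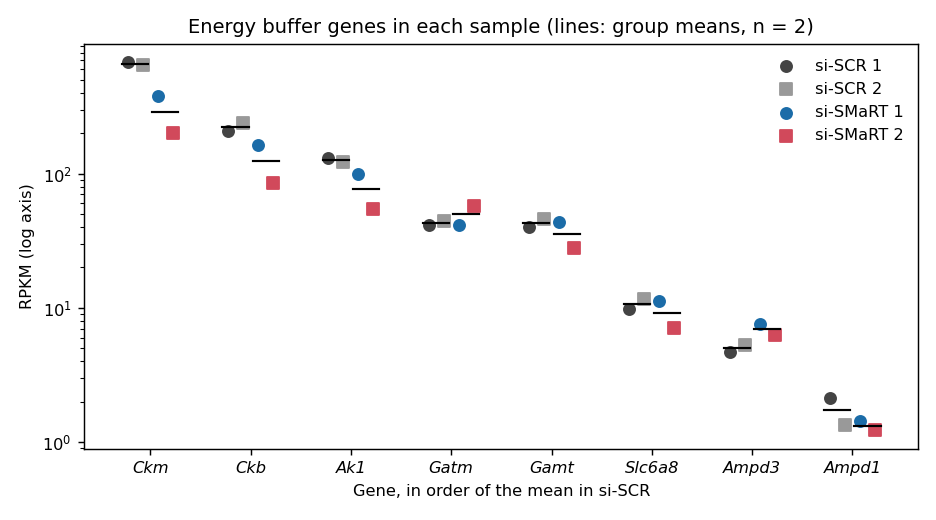
RPKM of the 8 members (log axis) in each of the 4 samples, ordered by the mean in si-SCR, with short lines for the group means (n = 2). Both si-SMaRT points of Ckm, Ckb and Ak1 lie below the si-SCR points, those of Ampd3 lie above them, and Gatm, Gamt, Slc6a8 and Ampd1 overlap.

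Creatine is made in a pair of steps, by Gatm, the amidinotransferase that forms guanidinoacetate from arginine and glycine, and by Gamt, the methyltransferase that turns it into creatine. Gatm (chromosome 2, 122594467 to 122611303, minus strand) had 41.7 and 44.4 RPKM in si-SCR and 41.7 and 57.7 in si-SMaRT. Gamt (chromosome 10, 80258151 to 80261012, minus strand) had 39.9 and 45.7 RPKM in si-SCR and 43.9 and 27.7 in si-SMaRT. The levels of these enzymes overlapped each other in si-SCR, and si-SMaRT 1 stayed near si-SCR for both. Only si-SMaRT 2 stood apart, with the highest Gatm and the lowest Gamt value of the 4 samples. The ratio of Gatm to Gamt was 1.05, 0.972 and 0.950 in the first 3 samples and 2.08 in si-SMaRT 2 (two-sided exact permutation p = 1.0). The exons of Gatm have a GC content of 43.4% and those of Gamt 59.6%. With the GC trend removed, si-SMaRT 2 minus si-SMaRT 1 was 0.05 for Gatm and 0.19 for Gamt on the log2 scale, against 0.47 and -0.66 before.

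Between the groups, the log2 fold change was 0.19 for Gatm (SE 0.27, 95% interval -0.38 to 0.76) and -0.29 for Gamt (SE 0.28, -0.89 to 0.31). Neither passed the test (adjusted p of 0.894 and 0.836, limma with Benjamini-Hochberg adjustment), and the intervals leave room for changes in either direction. Without si-SMaRT 2 the sign of both turned, to -0.05 for Gatm and 0.04 for Gamt, and Gamt was called without si-SMaRT 1 at -0.62 (adjusted p of 0.013, limma), where 26.2% of all rows were called.

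Slc6a8 is the creatine transporter of the plasma membrane and lies on chromosome X from 73673150 to 73682502, on the plus strand. It had 9.81 and 11.6 RPKM in si-SCR and 11.3 and 7.03 in si-SMaRT. As for Gamt, only si-SMaRT 2 was low, and the groups overlapped. The log2 fold change was -0.26 (SE 0.29, 95% interval -0.88 to 0.36, limma, Benjamini-Hochberg adjusted p = 0.857). Without si-SMaRT 2 it was 0.08, and without si-SMaRT 1 Slc6a8 was called at -0.60 (adjusted p of 0.025, limma), along with 26.2% of all rows. With the GC trend removed, the si-SMaRT samples differed by only -0.05 on the log2 scale, and the fold change was -0.11.

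The AMP deaminases were the least abundant members. Ampd1, the form of mature skeletal muscle (chromosome 3, 103074014 to 103099720, plus strand), had 2.14 and 1.33 RPKM in si-SCR and 1.43 and 1.22 in si-SMaRT. These values rest on at least 79, 55, 47 and 51 reads. At these read numbers, counting error alone gives exact Poisson 95% intervals of 1.69 to 2.66, 1.00 to 1.73, 1.05 to 1.90 and 0.908 to 1.60 RPKM. The highest value was that of si-SCR 1, and si-SCR 2 lay between the si-SMaRT samples, so the groups overlapped. The log2 fold change was -0.34 (SE 0.33, 95% interval -1.03 to 0.36, limma, Benjamini-Hochberg adjusted p = 0.840), and it was -0.014 without si-SCR 1 and -0.66 without si-SCR 2. The reads carry no molecular identifiers, so these intervals cover counting error only.

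Ampd3, an AMP deaminase that is also found outside muscle (chromosome 7, 110768206 to 110812405, plus strand), had 4.65 and 5.33 RPKM in si-SCR and 7.62 and 6.29 in si-SMaRT. It was the single member that was higher in both si-SMaRT samples, where 20.2% of all rows were. The log2 fold change was 0.47 (SE 0.28, 95% interval -0.12 to 1.06, limma, Benjamini-Hochberg adjusted p = 0.659). With the GC trend removed it was 0.51 (adjusted p of 0.071, limma), and with single samples left out of the deposited values it lay between 0.33 and 0.60. Ampd3 exceeded Ampd1 in every sample, with ratios of 2.18 and 4.0 in si-SCR and 5.34 and 5.16 in si-SMaRT (two-sided exact permutation p = 0.333). Rnf141, a gene on the opposite strand, and Gm47282 share 4.55% of the 50-base stretches of Ampd3.

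By level in si-SCR the order was Ckm, Ckb, Ak1, Gatm, Gamt, Slc6a8, Ampd3 and Ampd1, and only Gatm and Gamt overlapped there. In si-SMaRT, Ckb overlapped Ak1, Ak1 overlapped Gatm, Gatm overlapped Gamt, and Slc6a8 overlapped Ampd3. In every sample Ckm was the highest, followed by Ckb. The summed level of the 8 members was 1114 and 1108 RPKM in si-SCR and 749 and 440.5 in si-SMaRT, most of it Ckm and Ckb. Over the 8 members the median log2 fold change was -0.31, against 0.02 over all 11086 rows. Of the 8, 6 were lower, where 5291 of all rows were.

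**Figure D2:**
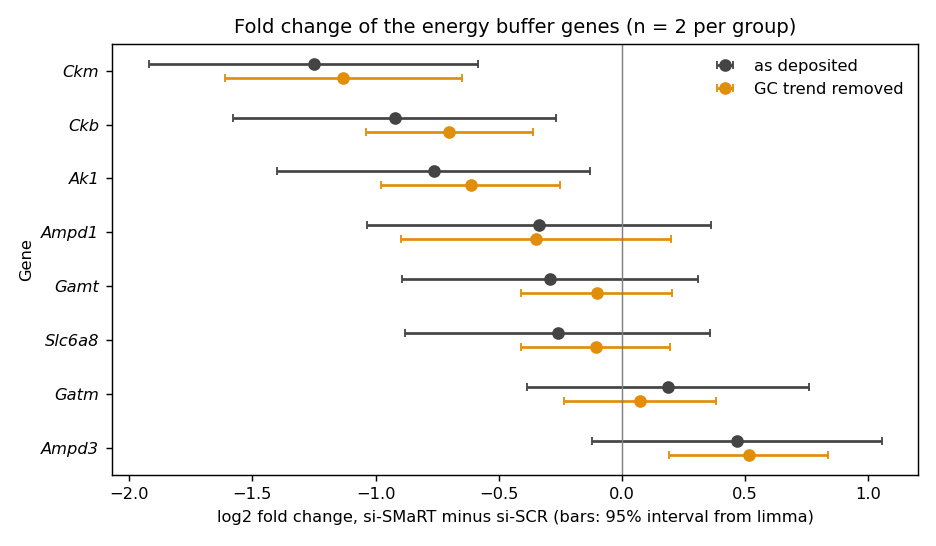
Log2 fold change (si-SMaRT minus si-SCR) of each member from limma, with 95% intervals, for the deposited values and with the trend with GC content removed from each sample (n = 2 per group). The intervals of Ckm, Ckb and Ak1 lie below 0 on both scales, that of Ampd3 lies above 0 only with the trend removed, and the others cross 0.

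The wide spread of the si-SMaRT samples moved with GC content. In the study's read numbers, the filter for rRNA and tRNA removed a far larger part of si-SMaRT 1 than of any other sample. Whether this bears on the spread was not tested. Across 10449 rows, si-SMaRT 2 minus si-SMaRT 1 had a Spearman's rho of -0.846 with the GC content of the exons, and si-SCR 2 minus si-SCR 1 had 0.355 (genes are not independent replicates). In Ckm, Ckb, Ak1, Gamt and Slc6a8, 5 of the 8 members with exons of 53.9% to 61.8% GC, si-SMaRT 2 was at least 1.5-fold lower than si-SMaRT 1, where 18.8% of all rows were. With the trend removed by a loess fit, 0 of the 8 differed that much, where 2.63% of rows did. Ckm kept the widest difference between the si-SMaRT samples, at -0.48 on the log2 scale, and Ckb differed by 0.05.

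With this trend removed, the log2 fold change was -1.13 for Ckm (SE 0.21, adjusted p = 0.021), -0.70 for Ckb (SE 0.15, adjusted p = 0.032) and -0.61 for Ak1 (SE 0.16, adjusted p = 0.059), by limma with Benjamini-Hochberg adjustment over 10457 rows. Ckm and Ckb were thus lower past the threshold, and Ak1 was not. Without si-SMaRT 1 all 3 passed, where 11.6% of rows did, at -1.37, -0.68 and -0.75. Without si-SMaRT 2, Ckm and Ckb passed at -0.89 and -0.72, where 10.5% of rows did. Without si-SCR 1 or si-SCR 2, 0 members passed by limma, where 0.00956% and 0.0% of rows did. The log2 fold change was then -1.05 and -1.21 for Ckm and -0.70 in both for Ckb. With the replicate number as a block as well, 0 members passed, where 1.99% of rows did (adjusted p of 0.062 for Ckm and 0.107 for Ckb, limma).

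**Figure D3:**
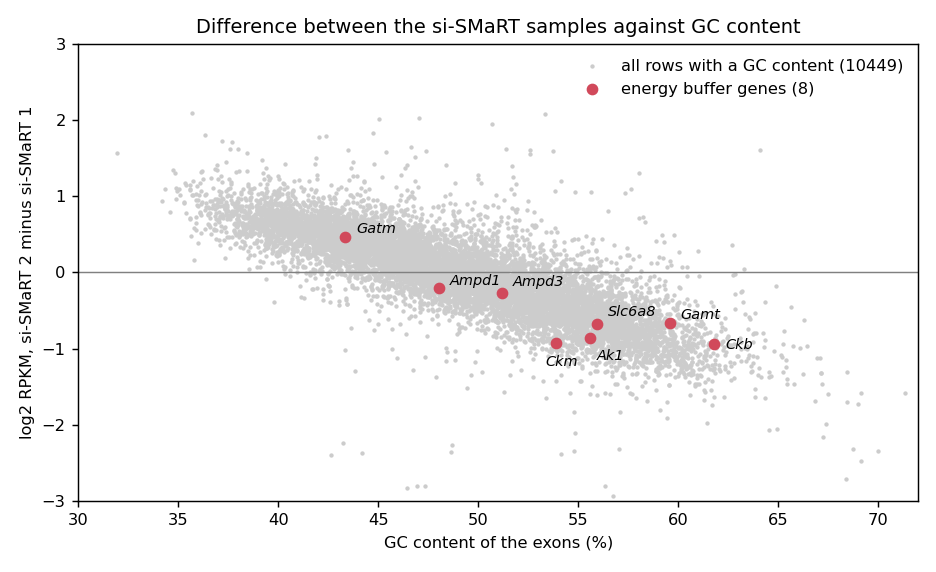
Difference between the si-SMaRT samples (log2 RPKM, sample 2 minus sample 1) against the GC content of the exons (%), for 10449 rows in grey and the 8 members in red. The cloud slopes down, with Spearman's rho of -0.846, and Gatm, with the lowest GC content of the members, is the only member above 0. Of the rows, 26 lie outside the axes.

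The wider energy pathway was read from 50 related genes in 6 lists, of which 37 had a row and 35 rows were tested. Of these, 10 were higher and 25 lower in si-SMaRT, against 5795 higher and 5291 lower over all 11086 rows. Their median log2 fold change was -0.12, and 1 passed the threshold by limma and by voom, where 0.505% and 0.929% of all rows did. That gene was, in both, Adssl1, the muscle adenylosuccinate synthase, which starts the return of IMP to AMP in the purine nucleotide cycle. Adssl1 had 25.5 and 23.5 RPKM in si-SCR and 10.6 and 7.17 in si-SMaRT, so the groups were far apart in each sample. It fell by 1.48 on the log2 scale (SE 0.28, limma, Benjamini-Hochberg adjusted p = 0.023), and by 1.32 with the GC trend removed (adjusted p of 0.0021, limma). The call was lost without si-SCR 1 or si-SCR 2 (log2 fold changes of -1.42 and -1.54), where fewer of all rows passed than in the main fit. It was also lost under quantile normalization (-1.45, adjusted p of 0.0504, limma).

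Adss, the isozyme of other tissues, had 17.0 and 16.4 RPKM in si-SCR and 19.5 and 27.5 in si-SMaRT, with a log2 fold change of 0.47 (adjusted p of 0.651, limma with Benjamini-Hochberg adjustment). Adss was below Adssl1 in both si-SCR samples and above it in both si-SMaRT samples. The ratio of Adss to Adssl1 was 0.666 and 0.696 in si-SCR and 1.83 and 3.84 in si-SMaRT (two-sided exact permutation p = 0.333). Among the 8 tested genes of the purine nucleotide cycle and AMP breakdown, 5 were higher and 3 lower, with a median log2 fold change of 0.07.

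In 3 of the related lists every tested row was lower in si-SMaRT, where 5291 of all 11086 rows were. In these lists 0 passed by limma, with 0 also at an unadjusted p under 0.05, against 9.09% of all rows. The 5 rows of nucleoside diphosphate kinases, which pass phosphate from ATP to other nucleotides, had a median log2 fold change of -0.28, with Nme4 at -0.48 and Nme6 at -0.23. The 6 rows for mitochondrial ATP and phosphate export had a median of -0.17. In that list Slc25a4, the ADP/ATP carrier typical of heart and muscle, stood at -0.31, with 272 and 234 RPKM in si-SCR and 210.3 and 196 in si-SMaRT, and Slc25a3, the phosphate carrier, at -0.01.

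Of 6 other adenylate kinases, 2 had a row and 0 passed by limma, with 0 also at an unadjusted p under 0.05. Ak3, the form of the mitochondrial matrix, had 37.0 and 36.9 RPKM in si-SCR and 26.4 and 35.9 in si-SMaRT, with a log2 fold change of -0.26. It was lower in both si-SMaRT samples, si-SMaRT 2 by little. Ak6, whose row also counts a gene that overlaps it, stood at -0.11, and the groups overlapped.

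For the AMP-activated protein kinase, a sensor of AMP and ADP, all 10 listed genes of subunits and upstream partners had a row. The row of Strada also counts genes that overlap it. Over the 10 rows the median log2 fold change was -0.08. By limma 0 passed, with 0 at an unadjusted p under 0.05, against 9.09% of all rows. Prkag3, the gamma subunit typical of skeletal muscle, was the lowest at -0.49 (22.1 and 26.8 RPKM in si-SCR, 18.5 and 16.1 in si-SMaRT), and Prkab1 the highest at 0.17. Of the creatine precursor enzymes and other transporters, 4 of 9 had a row, with a median of -0.03. They ranged from Ahcy, the hydrolase of S-adenosylhomocysteine, at -0.25 to Slc6a6, the taurine transporter, at 0.19, and 0 passed by limma, with 0 at an unadjusted p under 0.05.

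**Figure D4:**
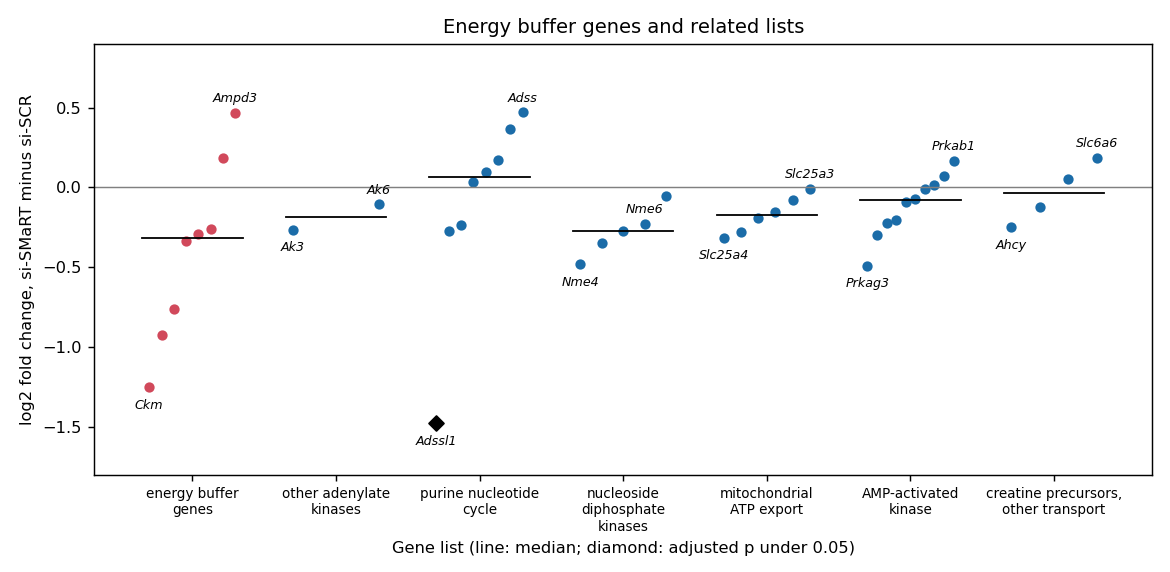
Log2 fold change (si-SMaRT minus si-SCR) of each tested row of the members and of 6 related lists, with a line for the median of each list and a diamond for an adjusted p under 0.05. Ckm, Ckb and Ak1 lie at -1.25 to -0.76, below all related genes except Adssl1 at -1.48. The medians of the related lists lie between -0.28 and 0.07. The 13 markers of differentiating muscle cells are not drawn. Their log2 fold changes ran from -1.10 for Tnni1 to 0.60 for Myh8, with a median of -0.57.

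The genes whose levels followed Ckm most closely were found as the 5 smallest root mean square distances over the 4 samples, on log2 values relative to the si-SCR mean of each gene, among 4675 rows with a mean of at least 10 RPKM. They were Dusp13 (0.059), a dual-specificity phosphatase, Porcn (0.0924), an acyltransferase of Wnt proteins, and Mvd (0.108), an enzyme of the mevalonate pathway. After these came Adck3 (0.110), a kinase-like protein of coenzyme Q synthesis, and Tgm2 (0.118), a transglutaminase. Nearest to Ckb were Slc2a6 (0.0527), a sugar transporter, Pfkm (0.0620) and Pgam2 (0.0727), the muscle forms of glycolytic enzymes, Trim72 (0.0761), a factor of membrane repair, and Sgca (0.0765), a sarcoglycan. Pfkm had 109.9 and 125 RPKM in si-SCR and 82.4 and 48.2 in si-SMaRT, and Pgam2 had 186 and 193 against 131 and 68.0. These distances describe 4 samples and share the GC trend, with exons of 53.3% to 59.1% GC for the 9 of these 10 genes that had a value.

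The pull-down peak lists were searched for the 10 genes. Neither the lnc-SMaRT list of 345 peaks nor the LacZ list of 336 had a peak on the annotated strand of any of them. There was 1 library for lnc-SMaRT and 1 for LacZ, so this count has no replicate check.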

How the data were processed

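Total RNA of 4 samples of C2C12 cells, 2 si-SCR and 2 si-SMaRT, was compared, and the pull-down libraries served only for a search of peaks on the members. The authors used Trimmomatic to trim, Bowtie 2 to discard rRNA and tRNA, and TopHat2 with Ensembl 77 to map the remaining pairs on GRCm38. After counting reads per gene with htseq-count, the authors deposited RPKM values, which edgeR gave with library sizes scaled by TMM. A row can join genes that overlap, as 576 of the 11642 rows do. The deposited peak lists give a p-value per peak from Piranha, which was not used further. No value column belonged to no sample (0 columns).

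R 4.3.3 and limma 3.58.1 were used to compare the groups by lmFit and eBayes, with a trended prior variance. The fit was made on log2(RPKM + 0.1) for the 11086 rows whose mean reached 0.5 RPKM, and p-values were adjusted by Benjamini-Hochberg with a threshold of 0.05. Fold changes are on this scale, which understates those of low genes. Ratios within a sample were compared with two-sided exact permutation tests. The reads behind the RPKM values were recovered for 11639 rows, within 0.002 of a whole read. For 6065 rows the gene model fixed the factor common to all samples, and the other reads, those of Ckm, Ckb, Ampd1 and Ampd3 included, are lower limits. Lengths, GC content and coordinates came from GENCODE M21, promoters from RefSeq. The trend with GC content was removed from each sample by loess with a span of 0.3. Scripts were tested on simulated data.

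The alternatives were pseudocounts of 1 and 0.01, no filter and a minimum of 5 RPKM, quantile normalization, no variance trend, the replicate block, removal of the GC trend with and without the block, voom on the recovered reads, and each sample left out. The crossed block and the GC-corrected values with each sample left out were added after the values were seen. The crossed block pairs si-SCR 1 with si-SMaRT 2 and si-SCR 2 with si-SMaRT 1, a pairing that no label gives. A gene of the related lists is not reported here. The members and lists were chosen with earlier results of these data known. All members were named, and of each related list the genes past the threshold and those with the lowest and the highest log2 fold change among genes with a mean of at least 5 RPKM. The rest was done in Python 3.11.15 with matplotlib 3.10.9, scipy 1.17.1, pandas 2.3.3 and numpy 2.4.6.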

Additional observations from a re-analysis of the deposited data

How the results depend on the processing

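The number of all rows past the threshold was 56, and it was 37 under quantile normalization, 96 with the replicate block, 580 with the GC trend removed, 208 with both, 103 with voom, 487 with a crossed block, and 24 to 2908 when single samples were left out. The number of members past it was 0, and it was 2 with the GC trend removed (Ckm at -1.13 and Ckb at -0.70 on the log2 scale), 1 with voom (Ckm at -1.25), 2 with the crossed block (Ckm at -1.25, Ckb at -0.92) and 0 to 5 when single samples were left out. The number of related genes was 1, became 0 under quantile normalization and lay between 0 and 8 when single samples were left out.

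When single samples were left out, the log2 fold change lay between -1.71 and -0.79 for Ckm, -1.39 and -0.45 for Ckb, -1.20 and -0.33 for Ak1, -0.62 and 0.038 for Gamt, -0.60 and 0.076 for Slc6a8, and -0.047 and 0.42 for Gatm. With the GC trend removed as well, the number of members lay between 0 and 3, and the log2 fold changes between -1.37 and -0.89 for Ckm, -0.72 and -0.68 for Ckb, -0.75 and -0.48 for Ak1, and -0.014 and 0.16 for Gatm. The sign also turned for Slc25a3 under quantile normalization (0.10), and Slc25a3 ranged from -0.078 to 0.063, Nme6 from -0.53 to 0.082, Slc6a6 from -0.0063 to 0.38 and the row of Ak6 from -0.33 to 0.12 when single samples were left out. Without si-SMaRT 1, Adss, Nme4 and Prkag3 were called, along with 26.2% of all rows. The cause of these changes was not tested. Where an arm held 1 sample, limma assumed that it varied like the other group. Of 401 alternative values in all, 349 kept their direction and side of the threshold or, for counts, stayed within 1.5 times.

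No label ties a replicate number to a batch, and whether a number marks the same population in both groups is not stated. Across 11086 rows, the difference between replicates 1 and 2 had a correlation of -0.362 between the groups (-0.194 with the GC trend removed). These differences moved with GC content, so the correlation cannot tell whether the numbers pair the samples. With the replicate block, Ckm had an adjusted p of 0.0701 (limma) and no call of a member or a related gene changed. The crossed pairing, added after the values were seen, gave 487 rows and 2 members. No label gives this pairing, and it follows the negative correlation above, so these calls carry no weight for Ckm and Ckb.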
